A study of Mus musculus with 12 samples.

Results

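Collagens and laminins are long secreted proteins that somatic cells of the testis lay down as the basement membrane of the seminiferous tubules and as the interstitial matrix between them. Collagen chains wind into a triple helix whose repeat unit is a glycine followed by 2 other residues, and the laminins assemble as heterotrimers of an alpha, a beta and a gamma chain. Their mRNAs are translated at the endoplasmic reticulum, and ORF1p, the RNA-binding protein of the LINE-1 (L1) retrotransposon, is made in the spermatocytes of *Mael*-/- mice, whereas the chains of the tubule wall and the interstitium are known as products of Sertoli, peritubular myoid, Leydig and endothelial cells.

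The genes described here are given by a rule on names, as every gene whose symbol starts as a collagen chain (Col, a number, a, a number) or a laminin chain (Lama, Lamb or Lamc and a number). The rule found 55 of the 20981 genes in the gene tables, of which 43 are collagen chains, 11 are laminin chains and 1 is neither. The exception is *Col4a3bp*, an older symbol of the ceramide transfer protein gene, which was named for a binding partner of a collagen chain and is given apart.

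All samples came from testes of *Mael*-/- C57BL/6 mice of 3 months of age, so the deletion is shared by all groups and no *Mael*+/+ library enters a comparison. TOTAL is RNA of the clarified extract in 10 mM EDTA, which takes ribosomes apart. INPUT is RNA of fractions 5 to 8 of that extract after a sucrose gradient, IP was pulled from INPUT with beads carrying anti-ORF1p, and BO (beads only) with beads that had none. Each group has 3 libraries, called biological replicates by the labels, but the gene tables hold no value per library. They give the authors' mean of normalized read counts per group, which is used here, and the authors' own comparisons, which were left unused. Every ratio below is therefore a description of group means, with no test, no spread between libraries and no depth. The 3 tables (IP with BO, IP with INPUT, IP with TOTAL) were normalized separately. Since the IP means differ between tables by a near constant factor (1.311 for the BO table and 1.004 for the TOTAL table, over 9689 and 10263 genes with an IP mean above 100), levels are printed on the scale of the IP and INPUT table. Ratios are log2 of the group means plus 1 within a table, over genes whose 2 group means average at least 10. INPUT over TOTAL and BO over INPUT are differences of 2 such ratios that share the IP mean. These ratios and IP over INPUT also share the INPUT mean.

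*Mael* itself had a mean of 0.502 in BO, 0.65 in TOTAL, and 0 in INPUT and in IP, each as deposited and without the change of scale. In the separate table of repeats, which has values per library, the bait's own transcript L1Md_A was at 56029 to 95645 normalized counts in the 3 IP libraries and at 14131 to 27258 in the other 9, with no overlap. BO replicate 3 stood apart, with 52.1% of its repeat counts on LSU rRNA where BO replicates 1 and 2 had 3.18% and 3.25%, and the gene values could not be recomputed without it. Reads on no annotated feature, set against reads on genes, no feature and ambiguous features, made up 25.5% in BO and 11.6% in IP of the same table. Their part in the ratios against BO was not tested. Spermatocyte markers had their highest summed level in IP (129300 over 6 genes, against 20630 in INPUT), and all Sertoli, Leydig, peritubular myoid, endothelial and macrophage lists were detected in TOTAL, with summed levels of 91460, 93390, 8557, 833 and 6381. These are bulk samples, in which fewer cells of a type and less RNA per cell cannot be told apart.

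The name rule can be read against the coding sequence. In GENCODE M21 (build mm10), the longest series of glycine codons (GGN) spaced by 3 codons was counted in the longest coding sequence of each gene. Chains of the large fibrillar collagens had 337 to 344 in a row, with 216 in *Col24a1* and 217 in *Col27a1*. The basement membrane chains *Col4a1* to *Col4a6* had 39 to 66. All 11 laminin chains had 2 or 3, and *Col4a3bp* had 2. The 20 codons from the start of that series, which run past its end in the laminin chain and in *Col4a3bp*, are printed 5′ to 3′ for a fibrillar chain, a basement membrane chain, the chain that stood apart in IP, a laminin chain and the gene that is no chain, with the GG of each codon in frame with the repeat in capitals.
Col3a1: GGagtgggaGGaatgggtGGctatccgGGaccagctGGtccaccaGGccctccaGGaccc
Col4a1: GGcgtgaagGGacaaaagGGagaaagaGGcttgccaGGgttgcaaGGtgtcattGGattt
Col14a1: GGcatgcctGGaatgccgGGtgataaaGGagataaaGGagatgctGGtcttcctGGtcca
Lamb2: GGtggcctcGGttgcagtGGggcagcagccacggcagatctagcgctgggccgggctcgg
Col4a3bp: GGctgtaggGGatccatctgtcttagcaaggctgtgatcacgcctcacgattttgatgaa
These bases are coding and exonic. They lie in exons 5 to 6 of 51 of *Col3a1* (chr1:45323762-45325383, plus strand), exons 2 to 3 of 52 of *Col4a1* (chr8:11247054-11267614, minus strand), exons 38 to 39 of 48 of *Col14a1* (chr15:55471708-55472977, plus strand), exon 28 of 33 of *Lamb2* (chr9:108488613-108488672, plus strand) and exons 2 to 3 of 18 of *Col4a3bp* (chr13:96549290-96571928, plus strand). Where a span covers more than 1 exon the intron between them is left out of the printed run.

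Of the 54 chains, 50 passed the filter against INPUT and against TOTAL, and 49 against BO as well. *Col9a1*, *Col9a2*, *Col24a1* and *Lamb3* passed in none of the 3 tables, with levels from 0 to 7.97 in any group, and *Col26a1* failed against BO alone. Among the 49 chains that passed in every table, INPUT was the highest of the 4 groups for 37 (75.5%) and BO the lowest for 36 (73.5%), where INPUT was the highest for 12.0% and BO the lowest for 53.9% of all 13566 genes that passed. Thus 39 of 49 chains were higher in INPUT than in TOTAL and then lower in IP than in INPUT, against 17.6% of all genes. With each ratio centred on the median gene 41 of 49 chains and 23.8% of all genes had this pattern, and with equal sums over genes 42 of 49 chains and 27.5%. That count was chosen after the values had been seen. Both parts of the pattern use the INPUT mean, with opposite signs, so they are not separate observations. Summed over the 54 chains, the level was 36970 in TOTAL, 60130 in INPUT, 15870 in BO and 31020 in IP.

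**Figure D1:**
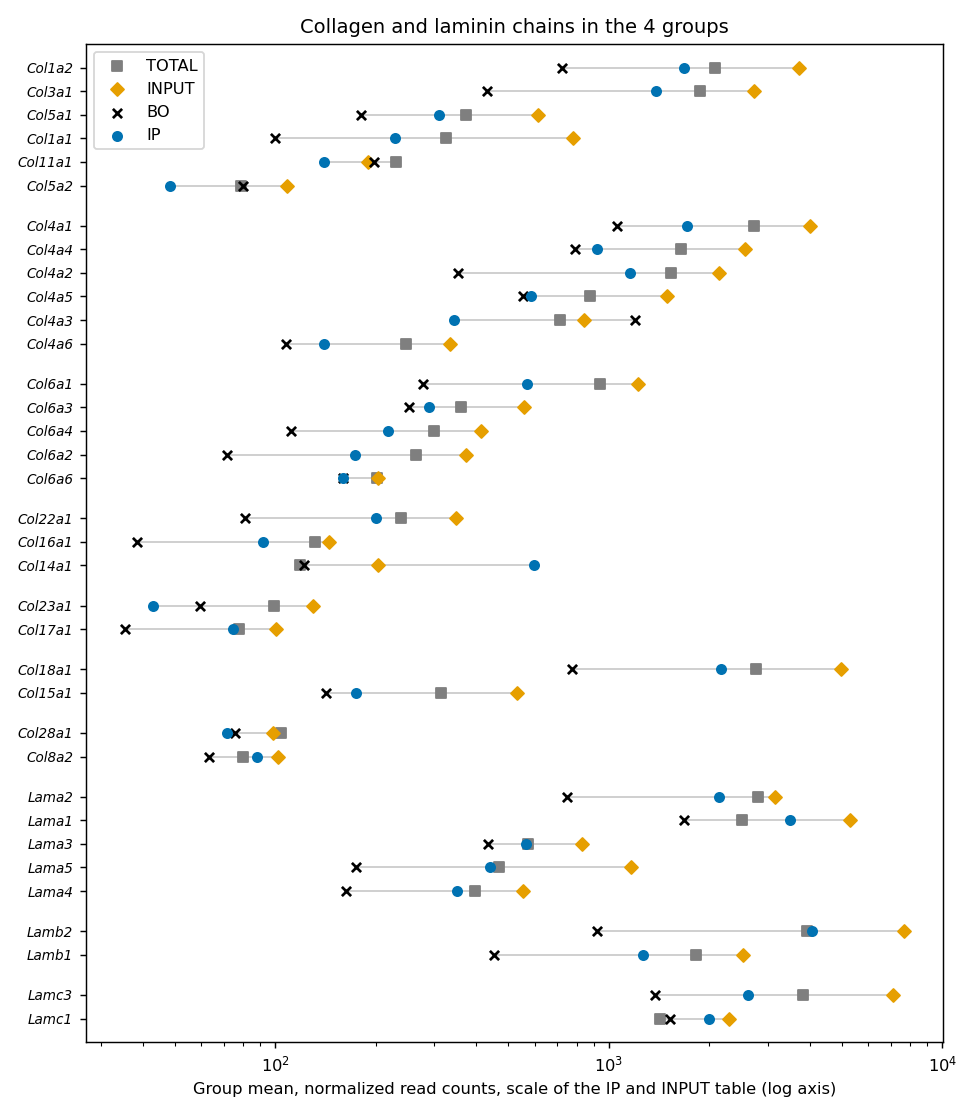
Group means of normalized read counts (log axis, scale of the IP and INPUT table) for the collagen and laminin chains named with their values that have a deposited mean of at least 100 in any group, 1 row per chain and 1 symbol per group, without error since no values per library are given. INPUT (diamonds) is the rightmost symbol in most rows, IP lies to the right of INPUT for *Col14a1* (597 against 203), and BO is the rightmost symbol for *Col4a3* (1194).

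The first question is what the gradient did to these mRNAs before any bead was added. The median log2 ratio of INPUT over TOTAL was 0.49 over the 51 members, against -0.14 over all 14280 genes, and 6 of 50 chains were below 0 (57.5% of all genes). At least 2-fold higher in INPUT were 4 chains (*Col2a1*, *Lama5*, *Col1a1* and *Lama1*, between 1.07 and 1.53), or 8.0% of the 50, against 2.3% of all genes, and 0 were at least 2-fold lower, against 17.0% of all genes. Over all genes the ratio climbed with the length of the longest annotated transcript, from a median of -0.997 under 2000 nt to -0.27, 0.25 and 0.61 in the classes from 2000 to 4000 nt, 4000 to 8000 nt and over 8000 nt. The members are long, with a median of 6046 nt (range 2781 to 11511) against 3381 nt for all genes that passed in the TOTAL table. Within the class of 4000 to 8000 nt, the 35 members had a median of 0.49 where all genes of the class had 0.25. Over 8000 nt, the 13 members had 0.54 and all genes 0.61. Inside the group length said little more, with Spearman's rho of 0.23 over 51 members, as against 0.64 over 14190 genes. Points of these relations come from the same 3 libraries per group, and the rho values are descriptions across genes, which are not independent replicates.

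The second question is whether the antibody retained what the gradient had gathered. Against INPUT, the median log2 ratio of the members was -0.87, while that of all 14400 genes was 0.15. At least 2-fold lower in IP were 17 of 51 members, as were 14.6% of all genes, and 2 members, *Col14a1* and *Col19a1*, were at least 2-fold higher, as were 20.5% of all genes. Just inside the 2-fold line were *Col6a2* and *Col6a1* (-1.10 and -1.11), and just outside were *Lamb1*, *Col5a1* and *Col3a1* (-0.996, -0.98 and -0.98), so the count of 17 rests on where the line is drawn. Centred on the median gene, 28 members were at least 2-fold lower (17.9% of all genes) and 2 higher (16.5% of all genes). With equal sums over genes, 36 were lower (28.2% of all genes) and 1 higher (9.14% of all genes). The shortfall was present at each length, with medians of -0.88 over the 35 members of 4000 to 8000 nt and -0.87 over the 13 members above 8000 nt, against 0.18 and 0.25 for all genes of these classes. Spearman's rho of length and ratio was -0.06 over the 51 members.

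**Figure D2:**
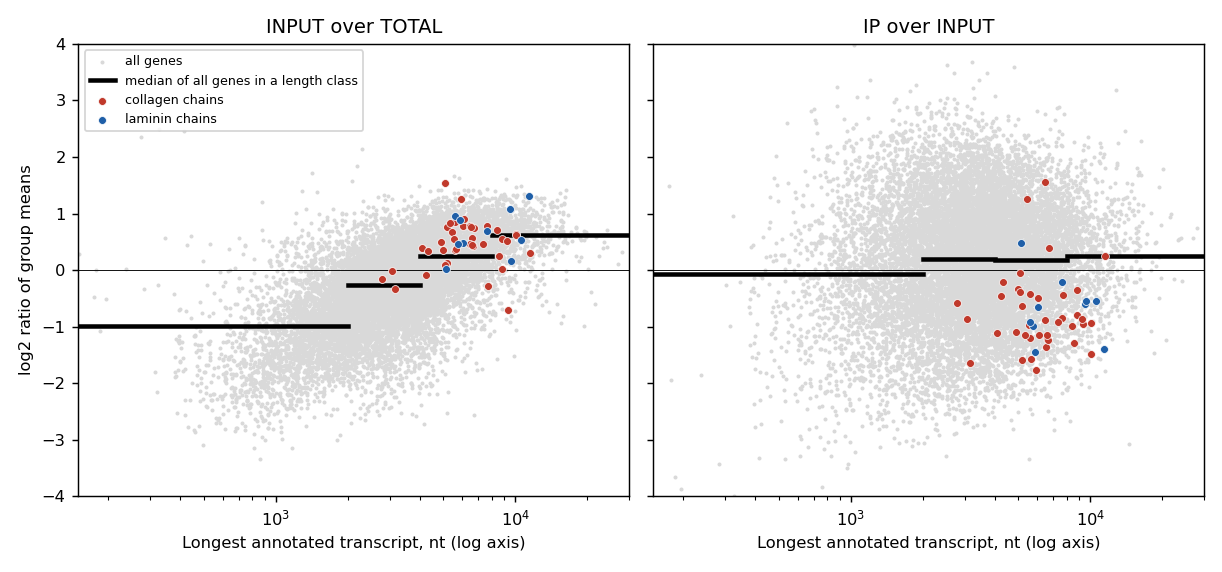
log2 ratio of group means against the longest annotated transcript (nt, log axis), INPUT over TOTAL on the left and IP over INPUT on the right, with all genes that passed the filter in grey, the median of all genes in each length class as a black bar, collagen chains in red and laminin chains in blue. Genes beyond the axes are not drawn. On the left the chains lie on both sides of the bars, with medians above the bar from 4000 to 8000 nt (0.25) for collagen and laminin chains alike, and on the right most of them sit under the bars (0.18 in that class).

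Against TOTAL, 38 of 51 members were below 0 in IP (74.5%, against 50.7% of all genes). The median of the members was -0.35 and that of all 14666 genes -0.03. At least 2-fold higher in IP were 4 of 51 members (20.4% of all genes), and 4 were at least 2-fold lower (26.2% of all genes). With equal sums over genes these counts were 3 (9.83% of all genes) and 20 (38.0% of all genes), the latter near the share of all genes. Length divided all genes here as well, with medians of 0.41 from 4000 to 8000 nt and 0.87 above 8000 nt, where the members had -0.35 and -0.32. Collagen chains had a median of -0.42 (40 chains) and laminin chains of -0.05 (10 chains).

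Against beads without antibody, the median log2 ratio of the members in IP over BO was 0.81, and the median over all 13634 genes was 0.81 too. Within length classes the medians differed. From 4000 to 8000 nt the 35 members had 0.92 and all genes 0.35, and over 8000 nt the 13 members had 0.38 and all genes -0.11. The 2 members from 2000 to 4000 nt lay the other way, at 0.118 against 1.025. At least 2-fold higher in IP were 21 of 50 members, as were 43.9% of all genes, and 3 were at least 2-fold lower (11.2% of all genes). Centred on the median gene the counts were 5 higher (18.3% of all genes) and 8 lower (24.1%), and with equal sums over genes 13 higher (34.3%) and 3 lower (15.0%). Laminin chains had a median of 1.21 (10 chains, 7 of them at least 2-fold higher and 0 lower) and collagen chains one of 0.65 (39 chains, 14 higher and 3 lower). The difference between the families was not tested.

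**Figure D3:**
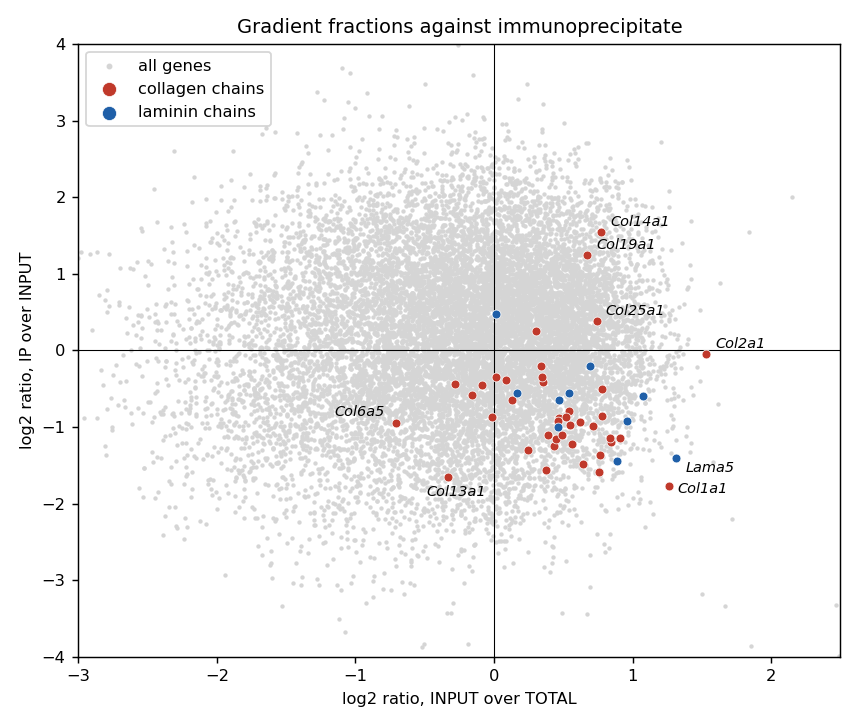
Each point is a gene, with the log2 ratio of INPUT over TOTAL on the x axis and of IP over INPUT on the y axis, all genes in grey, collagen chains in red and laminin chains in blue. Genes beyond the axes are not drawn. Both axes use the INPUT mean, with opposite signs. The chains gather at the lower right, which holds 39 of the 49 that passed in every table, with *Col14a1* (0.77, 1.55) and *Col19a1* (0.67, 1.25) above them.

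Fibrillar collagens form the tensile fibres of the interstitium and of the peritubular wall. *Col1a2*, a chain of collagen I, was at 2074 normalized counts in TOTAL, 3707 in INPUT, 723 in BO and 1678 in IP. Its partner chain *Col1a1* was at 326 in TOTAL, 782 in INPUT, 99.8 in BO and 229 in IP, with the lowest IP over INPUT ratio among the chains that passed (-1.76). *Col3a1*, the collagen III chain of elastic tissues and vessel walls, was at 1874, 2732, 430 and 1384 in the same order. The 3 shared 1 order of groups, INPUT over TOTAL over IP over BO. *Col5a1*, whose product starts and limits the growth of fibrils, kept that order at 373, 614, 180 and 310. For *Col5a2* the BO level (80.0) was above the IP level (48.3), with 79.1 in TOTAL and 109 in INPUT. The low *Col5a3* was at 27.2 in TOTAL, 52.1 in INPUT, 12.2 in BO and 23.0 in IP. *Col11a1*, better known from cartilage, differed from its class in having TOTAL as the highest group, with 230 in TOTAL, 189 in INPUT, 198 in BO and 140 in IP. *Col11a2* had 21.9, 38.3, 4.67 and 26.8, and its log2 ratio of IP over BO was 2.23, or 1.16 with a pseudocount of 10. *Col2a1*, the main collagen of cartilage, was low at 13.1 in TOTAL, 40.0 in INPUT, 5.29 in BO and 38.8 in IP. Its log2 ratio was 2.605 for IP over BO (1.497 with a pseudocount of 10) and 1.49 for IP over TOTAL, while its IP and INPUT means were alike (-0.04). *Col27a1* was between 37.3 and 68.2 in all groups. Of the 10 fibrillar chains that passed, 10 were lower in IP than in INPUT (44.4% of all genes), 4 of them at least 2-fold (14.6% of all genes). Centred on the median gene, *Col3a1*, *Col5a1* and *Col27a1* crossed that line too (-1.132, -1.135 and -1.005), as did 17.9% of all genes. With a pseudocount of 10 the ratio of *Col5a3* became -0.91 and no longer crossed it.

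Collagen IV chains form the network of basement membranes, and in the mouse genome they sit in head-to-head pairs that share the stretch between their starts. *Col4a1* had 2718 in TOTAL, 4012 in INPUT, 1060 in BO and 1716 in IP. *Col4a2*, whose annotated start is 21 nt away on the other strand, had 1537, 2132, 354 and 1156. The partners differed most on bare beads, so that IP over BO was 0.69 for *Col4a1* and 1.70 for *Col4a2*. The annotated exons of the pair overlap by 22 bases on opposite strands, and whether counting used strand is not given in the sources used here. *Col4a3* was the one basement membrane chain that was highest on beads without antibody, at 713 in TOTAL, 845 in INPUT, 1194 in BO and 343 in IP. *Col4a4*, which starts 72 nt from it, was at 1640, 2568, 793 and 921. Between these partners the IP over INPUT ratio differed by 0.18 and the BO over INPUT ratio by 2.19. *Col4a3* shares 563 exonic bases with the noncoding *C430014B12Rik* on the other strand, and the part of that gene in the *Col4a3* means was not tested. *Col4a5* was at 880, 1498, 553 and 582, and *Col4a6*, the minor X-linked partner, at 246, 333, 108 and 140. With equal sums over genes, IP over BO turned from 0.213 to -0.075 for *Col4a4* and from 0.073 to -0.214 for *Col4a5*. As a class the 6 chains had the median farthest below 0 against INPUT after the pair of multiplexins (-1.27), with 5 of 6 at least 2-fold lower in IP (14.6% of all genes). The class also had a median of -0.74 against TOTAL.

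Collagen VI chains form beaded microfilaments next to basement membranes. *Col6a1* was at 939 in TOTAL, 1227 in INPUT, 277 in BO and 569 in IP. *Col6a2*, a partner in the same trimer, was at 264, 372, 71.7 and 173, and the long chain *Col6a3* at 362, 558, 252 and 290. The order of groups was the same in all 3 of these chains, but with equal sums over genes the IP over BO ratio of *Col6a3* turned from 0.20 to -0.09. *Col6a4* had 300, 414, 111 and 218, and it shares 127 and 162 exonic bases with *Gm36993* and *Gm47575* on the other strand. *Col6a6* was nearly flat, at 202 in TOTAL, 204 in INPUT and 160 in both BO and IP. *Col6a5* departed from the others in being lower in INPUT than in TOTAL, with 63.6 in TOTAL, 38.4 in INPUT, 18.0 in BO and 19.4 in IP, and it was among the 4 members at least 2-fold lower than TOTAL (-1.66).

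FACIT collagens attach to the surface of fibrils and have interrupted triple helices. *Col14a1*, a FACIT of fibril-associated interstitial matrix, was the only chain at least 2-fold higher in IP than in each of the other groups. It had 119 normalized counts in TOTAL, 203 in INPUT, 122 in BO and 597 in IP, with log2 ratios of 2.28 against BO, 1.55 against INPUT and 2.32 against TOTAL. Of all 13566 genes that passed in every table, 11.0% had this property, and of the 49 chains 2.04%. Centring on the median gene left the ratios at 1.46, 1.40 and 2.35, and equal sums over genes at 1.99, 1.02 and 1.81. *Col19a1* was much lower, at 8.62 in TOTAL, 14.3 in INPUT, 24.9 in BO and 35.3 in IP. Its log2 ratio was 1.25 for IP over INPUT and 0.49 for IP over BO, and the latter was -0.32 when centred on the median gene. With equal sums over genes the former was 0.75. *Col22a1*, known from tissue junctions, was at 239, 348, 81.3 and 201 in TOTAL, INPUT, BO and IP. *Col16a1* was at 131, 145, 38.5 and 92.2. *Col9a3* was at 42.0, 41.6, 8.40 and 22.3, and it shares 234 exonic bases with *Tcfl5* on the other strand. The remaining FACITs, *Col12a1* and *Col20a1*, lay between 23.6 and 48.2 in all groups. The class was mixed, with 4 of 7 chains lower in IP than in INPUT (57.1%, against 44.4% of all genes), 2 at least 2-fold higher (28.6%, against 20.5%), and 0 at least 2-fold lower (14.6% of all genes).

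Transmembrane collagens stay anchored in the plasma membrane of the cell that makes them. *Col23a1* was at 99.4 in TOTAL, 130 in INPUT, 59.5 in BO and 43.0 in IP. *Col13a1* was at 59.5, 47.2, 30.9 and 14.4, and with *Col4a3* it made up the 2 chains that were at least 2-fold lower in IP than in each other group, where 3.63% of all genes were. With a pseudocount of 10 its IP over BO ratio of -1.04 became -0.68 and passed the 2-fold line no more. *Col17a1*, a hemidesmosome component of epithelia, was at 78.1, 100.2, 35.4 and 74.8. *Col25a1*, known from neurons, was higher on both kinds of beads than before them, at 31.0 in TOTAL, 52.2 in INPUT, 85.2 in BO and 68.7 in IP. Its ratio against TOTAL was 1.13 (0.63 with equal sums over genes and 0.94 with a pseudocount of 10), and against BO it was -0.30. With equal sums over genes its IP mean was no longer above INPUT (-0.14).

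Multiplexins are basement membrane collagens with many interruptions of the helix. *Col18a1*, whose C-terminal fragment is endostatin, was at 2764 in TOTAL, 4975 in INPUT, 777 in BO and 2168 in IP. *Col15a1* was at 314, 530, 142 and 175. Both were at least 2-fold lower in IP than in INPUT, at -1.20 and -1.59. Of the other collagens, *Col8a1*, a short network chain of vessels, was highest on bare beads, at 19.2 in TOTAL, 20.5 in INPUT, 49.0 in BO and 15.5 in IP, and its ratio of IP over BO was -1.58. Its relative *Col8a2* was at 80.3, 102, 63.1 and 88.2, and *Col28a1* at 104, 98.4, 76.0 and 71.5. *Col7a1* of anchoring fibrils was at 23.0 normalized counts in TOTAL, 33.5 in INPUT, 13.9 in BO and 17.9 in IP, and *Col26a1* stayed between 2.35 and 19.3.

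Laminin alpha chains carry the domain that cell surface receptors bind. *Lama1* was at 2508 in TOTAL, 5282 in INPUT, 1675 in BO and 3491 in IP, so that IP was above TOTAL by 0.48 on the log2 scale (-0.04 with equal sums over genes). *Lama2*, the chain best known from muscle, was at 2806, 3149, 750 and 2143. *Lama5* was at 468, 1166, 174 and 440 and had the highest log2 ratio of INPUT over TOTAL (1.31) among the laminin chains that passed. *Lama4*, a chain of vessel walls, was at 397, 552, 163 and 351, and *Lama3* of epithelia at 572, 831, 435 and 565. In these 5 chains INPUT was the highest group and BO the lowest. *Lama2*, *Lama3* and *Lamc3* share 631, 197 and 382 exonic bases with antisense genes, whose part in the means was not tested.

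Beta and gamma chains complete the trimer. *Lamb2* was at 3931 in TOTAL, 7662 in INPUT, 922 in BO and 4055 in IP, with the largest INPUT mean and the lowest BO over INPUT ratio of the chains (-3.05). *Lamb1* was at 1824, 2518, 452 and 1262. *Lamc1*, the gamma chain of most trimers, was at 1425 in TOTAL, 2297 in INPUT, 1523 in BO and 1993 in IP, and differed from *Lamb2* on bare beads, with BO over INPUT at -0.59. With equal sums over genes, IP over TOTAL turned from 0.49 to -0.03 for *Lamc1* and from 0.045 to -0.47 for *Lamb2*. *Lamc3* was at 3830, 7109, 1377 and 2611. Taken per length, which allows levels to be compared between genes, the chains with the most counts per kb of the longest transcript in TOTAL were *Lamb2* (698 per kb), *Lamc3* (652), *Col18a1* (494), *Col4a1* (411), *Col1a2* (388) and *Col3a1* (337). Their order cannot be set against a spread between libraries.

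The name match that is no chain, *Col4a3bp*, was at 3435 in TOTAL, 3605 in INPUT, 6094 in BO and 3875 in IP. The log2 ratios against TOTAL were 0.07 for INPUT and 0.17 for IP, and with equal sums over genes the latter turned to -0.34 and IP over INPUT from 0.10 to -0.43. Bare beads held the most, with BO over INPUT at 0.76 where the median of the 49 chains was -1.69. Its transcript of 5285 nt is as long as that of many chains. *Col4a3bp* shares 267 exonic bases with *Gm48133* on the other strand, and the part of that gene in the *Col4a3bp* means was not tested.

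The chains were at a low level on bare beads compared with INPUT. The median log2 ratio of BO over INPUT was -1.67 over 50 members and -0.55 over all 13578 genes, and *Col8a1*, *Col19a1*, *Col25a1*, *Col4a3* and *Col11a1* were the chains above 0, with 1.20, 0.76, 0.69, 0.50 and 0.06. Over all genes this ratio rose with length, with Spearman's rho of 0.46, against 0.14 over the 50 members. From 4000 to 8000 nt the 35 members had a median of -1.87 and all genes -0.11. Over 8000 nt the 13 members had -1.20 and all genes 0.40. GC content of the longest transcript also moved with BO over INPUT. Spearman's rho was -0.61 over the 50 members and -0.47 over all genes. *Col8a1* (46.8% GC), *Col25a1* (45.9%) and *Col4a3bp* (42.0%) lay at the AT-rich end and *Lamb2* (58.8%) and *Col1a1* (58.9%) towards the other. The members are richer in GC than other genes, with a median of 54.5% against 49.6%. Between *Col4a3* (50.4%) and *Col4a4* (51.1%), the ratio differed by 2.19. *Lamc1* (53.0%) and *Lamb1* (52.5%) had ratios of -0.59 and -2.48. For IP over BO the rho over members was 0.40, and for IP over INPUT -0.31. These are descriptions over genes measured in the same libraries, and the part of base composition or of length in any ratio was not tested.

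**Figure D4:**
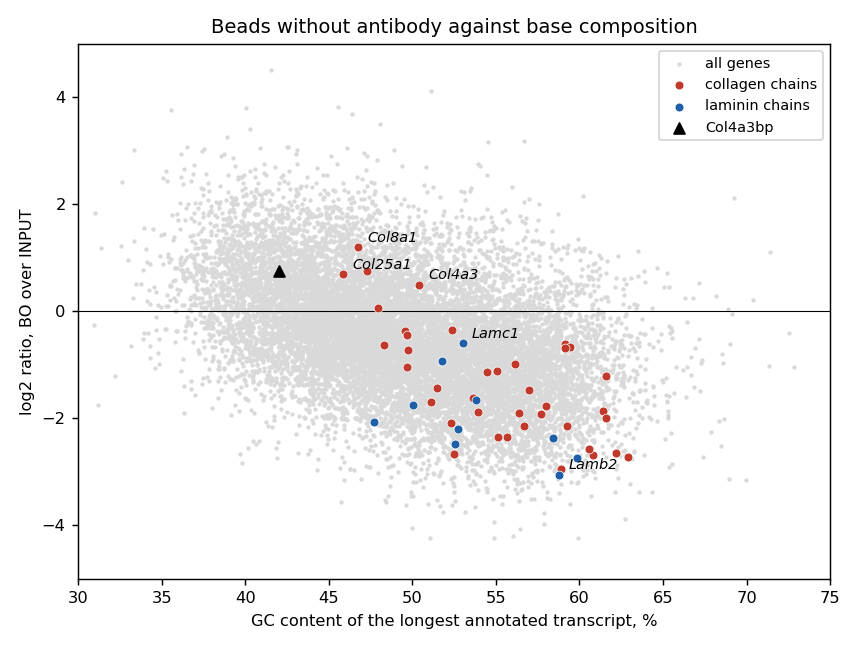
log2 ratio of BO over INPUT (y axis) against GC content of the longest annotated transcript in percent (x axis), all genes in grey, collagen chains in red, laminin chains in blue and *Col4a3bp* as a black triangle. Genes beyond the axes are not drawn. Chains reach from *Col8a1* (46.8%, 1.20) to *Lamb2* (58.8%, -3.05), and *Col4a3* (50.4%, 0.50) lies above the chains of like GC content.

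Genes that work with these chains were compared in the same way. Enzymes and chaperones of collagen maturation, which hydroxylate, fold, trim and cross-link the chains, had a median IP over INPUT ratio of -0.78, with 10 of 21 that passed at least 2-fold lower (47.6%, against 14.6% of all genes) and 0 higher (20.5% of all genes). The members of that list with the highest TOTAL means are given here. *P4hb*, a subunit of prolyl hydroxylase and a general disulfide isomerase, was at 5278 in TOTAL, 6553 in INPUT, 1247 in BO and 5547 in IP. The procollagen processing enhancer *Pcolce* was at 3821, 3717, 326 and 855, and the prolyl isomerase *Ppib* at 2821, 2148, 499 and 1019. *Mia3*, an export receptor for collagen, was higher in IP than in any other group, at 2788, 2636, 1964 and 4272. Other matrix proteins had a median of -0.81, with 7 of 18 at least 2-fold lower (38.9%) and 1 (*Tnc*) higher (5.56%). Against TOTAL this list lay on the other side of 0 from the chains, with a median of 0.22. Below 0 were 7 of 18 (38.9%, against 50.7% of all genes). That side may rest on the scaling, since with equal sums over genes the median of all genes moved from -0.03 to -0.54. In this list *Sparc*, a collagen-binding glycoprotein, was at 21410 in TOTAL, 22430 in INPUT, 4978 in BO and 3158 in IP, and its IP over INPUT ratio of -2.83 was the lowest of the list. *Hspg2*, the perlecan gene, was at 1350, 3122, 484 and 1303, and *Nid1*, whose product links laminin to collagen IV, at 1039, 1174, 458 and 501. Receptors for collagen and laminin had a median of -0.85, with 5 of 13 at least 2-fold lower (38.5%) and 2 higher (*Itga2* and *Itga11*, 15.4%), the latter below the share of all genes. The integrin beta chain *Itgb1* was at 6296, 5282, 5172 and 5926, nearly level over the groups, and dystroglycan (*Dag1*) at 3765, 4627, 2775 and 3779. Next in TOTAL came *Ddr1* at 2780, 4009, 2229 and 1630, and *Itga6* at 2654, 3691, 3948 and 1905. Their IP over INPUT ratios were -1.30 and -0.95. The INPUT over TOTAL medians of the 3 lists were 0.27, 0.77 and 0.40.

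Markers of the somatic cells that could make these chains also had medians below 0 for IP over INPUT, where 44.4% of all genes were below 0. The medians were -1.47 for Sertoli cells (8 of 8 below 0), -1.60 for Leydig cells (7 of 7), -1.25 for peritubular myoid cells (5 of 6), -0.59 for endothelium (3 of 5) and -1.05 for macrophages (4 of 4), so that the endothelial count was near the share of all genes. Spermatogonium markers had -0.78 (5 of 6 below 0), and the 6 spermatocyte markers had 2.55 with 0 of 6 below 0. Markers of spermatids were near the filter, and 1 of 6 passed against INPUT. Against TOTAL the somatic lists had medians of -1.69, -2.58, -2.81, -0.27 and -1.13 in the same order, where the 50 chains had -0.35, so that the endothelial list lay nearer to 0 than the chains and the other lists farther from it. In INPUT over TOTAL they had -0.30, -0.96, -1.56, 0.21 and -0.22. The chains had 0.51 at this step. Over all genes INPUT over TOTAL and IP over TOTAL both rose with length (Spearman's rho of 0.64 and 0.42). The marker lists were not matched to the chains in length, and the part of length in these gaps was not tested. How much of the chains' shortfall in IP goes with their cell of origin was not tested.

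**Figure D5:**
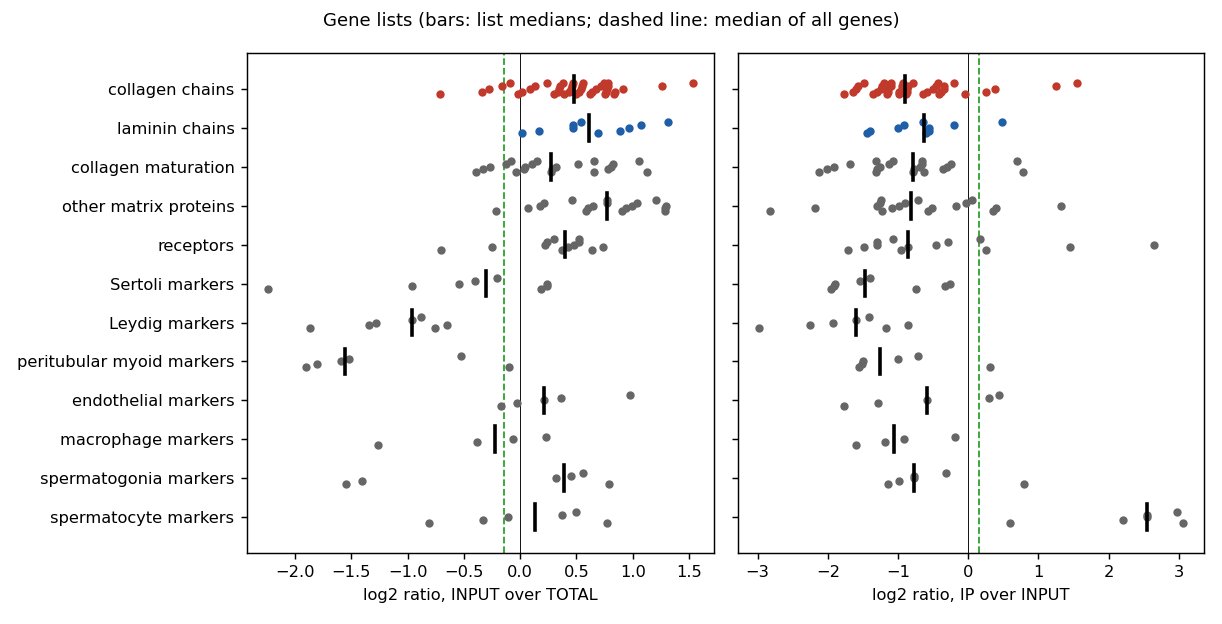
log2 ratios of INPUT over TOTAL (left) and of IP over INPUT (right) for each gene that passed the filter, by list, with a black bar at the list's median and a dashed line at the median of all genes (-0.14 and 0.15). The chain lists lie right of the dashed line on the left panel and left of it on the right panel (medians -0.90 for collagen and -0.62 for laminin chains), where, of the lists drawn, only spermatocyte markers have a median above it (2.55).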

How the data were processed

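Processed tables for 12 RNA-seq libraries (rRNA-depleted, stranded TruSeq, 75 nt single-end) were used, and groups were taken from the sample labels. Per the submitters' notes and methods, alignment to mm10 used STAR 2.6.0c and normalization of counts DESeq2 1.24.0. The gene annotation and the strand setting are not given in the sources used here. The deposited signal for a gene is the authors' group mean of normalized counts. The tables' own fold changes, standard errors and p-values for each comparison were not used. For repeats, the deposited signal is an upper-quartile normalized count per library. Rows that name no gene were left out, among them reads on no feature (11.6% to 25.5% of reads on genes, no feature and ambiguous features) and on ambiguous features (2.24% to 3.03%). Ratios used a pseudocount of 1 and an average of at least 10, in Python 3.11.15 with pandas and numpy, and the steps were tested on simulated data. Lengths and GC content came from GENCODE M21 for 20707 of 20981 symbols, directly or through RefSeq synonyms. Values in every group are printed for members with a mean of at least 100 in any group or a 2-fold ratio in any comparison, and other members by range. The values of 1 member are not reported here. The rule for members uses names and no values, but it and the lists were chosen with earlier results of these data known. The alternatives were other pseudocounts, filters and scalings, the median transcript, and the exclusion of *Col4a3bp*. With no values per library, the precision of a gene's mean is unknown.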

Additional observations from a re-analysis of the deposited data

How the results depend on the processing

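No paired analysis was possible because the gene tables hold no values per library, and for the same reason no replicate could be left out. The median log2 ratio of the members kept its direction under all 7 alternatives in each comparison but IP over BO, which was at 0.001 when centred on the median gene, with 25 members above and 25 below. Scaling moved the most values. Centred in this way, IP over BO had 5 members at least 2-fold higher and 8 lower, IP over INPUT a median of -1.02 with 28 lower, and BO over INPUT a median of -1.13. With equal sums over genes, 13 members were higher in IP than in BO (34.3% of all genes), 36 lower and 1 higher against INPUT (28.2% and 9.14% of all genes, median of members -1.39), and 20 lower against TOTAL (38.0% of all genes, median of members -0.85). Requiring an average of at least 100, which tests fewer genes, gave 1 member higher against INPUT (22.6% of all genes), 1 higher and 1 lower against TOTAL (22.8% and 22.2%), 1 lower against BO (11.3%) with a median of 1, and 25 of 27 chains higher in INPUT than in TOTAL and lower in IP than in INPUT (16.9% of all genes). Without a filter 7 members were higher against TOTAL (17.5% of all genes), and with a pseudocount of 10 there was 1 higher against INPUT (18.9%). Spearman's rho of length and ratio was 0.35 for BO over INPUT and 0.15 for IP over INPUT at an average of at least 100, and 0.025 for INPUT over TOTAL with the median transcript. With that length, all genes of 4000 to 8000 nt had medians of 0.25 for BO over INPUT and -0.06 for IP over BO, against -0.11 and 0.35 with the longest. The cause of these shifts was not tested.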
